A study of Mus musculus with 6 samples.

Results

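SMADs, the type I BMP receptor Bmpr1a and the SMURF ubiquitin ligases were followed in bone marrow (BM) erythroblasts recovering from anemia. The members were taken by name: every non-control probe of the array annotated to Smad1 to Smad7, Smurf1, Smurf2 or Bmpr1a, which gave 17 probes of 10 genes among 55681 probes. RNA of sorted CD71highTer119+ BM erythroblasts was measured on 1 Agilent whole mouse genome array per mouse, from 3 P38α+/− and 3 P38α−/− mice, to ask what P38α does in stress erythropoiesis. The P38α+/− mice were Mx1-Cre P38α fl/+ littermates and the P38α−/− mice were Mx1-Cre P38α fl/fl, on the C57Bl/6 background. All 6 mice carried Cre and had been given 3 injections of PolyIC (300 µg each) from an age of 6 to 8 weeks, 6 weeks of rest and 1 injection of the hemolytic agent phenylhydrazine (PHZ) at 100 mg per kg. Erythroblasts were sorted on day 4 of recovery. Controls therefore carry 1 deleted allele and no untreated mouse was among the samples. Mx1-Cre is driven by an interferon-inducible promoter and is not restricted to erythroid cells, so deletion need not be confined to the sorted population.

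BMPs, TGF-β and activins bind pairs of type I and type II serine/threonine kinase receptors. The type I receptor phosphorylates a receptor-regulated SMAD, which joins Smad4, the common partner, and enters the nucleus to act on target genes. Smad1 and Smad5 carry BMP signals, Smad2 and Smad3 carry TGF-β and activin signals, and Smad6 and Smad7 are inhibitory. Smurf1 and Smurf2 are HECT-type ubiquitin ligases that mark SMADs and their receptors for degradation, and Smurf2 has other substrates, the histone methyltransferase Ezh2 among them. In mice, BMP signalling through Smad5 is known for its part in stress erythropoiesis, mainly in the spleen, and TGF-β is known to limit erythroid proliferation.

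Only probes that all 3 arrays of a genotype, either one, placed well above background were tested. That held for 7 of the 17 member probes, from 5 genes: Smad3, Smad4, Smad5, Smurf1 and Smurf2. The first 30 of the 60 bases of 6 of these probes are shown as the scanner files list them, because the 3 Smurf2 probes, which read separate stretches of 1 transcript, gave differences of unequal size. The name of each line is the gene and the base of its transcript at which the probe starts.
Smurf2, base 2708: atgtggctttgctgtggaatgatgggcacc
Smurf2, base 3541: ggtggattttcattctttgctgggtcagct
Smurf2, base 4449: tgccctatgtaacggtcttcaatagcacag
Smurf1, base 2318: accattcacctgatagacgccaatacagac
Smad3, base 5030: tataaacgcccttctaataaacttttcacc
Smad5, base 6826: gtacactagcagcgtgcttcaattctgcca
In the build of the array files, mm9, the Smurf2 probes lie on the minus strand of chromosome 11 at chr11:106683941-106684000, chr11:106683108-106683167 and chr11:106682200-106682259, in the order shown. The Smad3 probe lies at chr9:63494574-63494633 on the minus strand and the Smad5 probe at chr13:56843578-56843637 on the plus strand. The Smurf1 probe spans chr5:145640319-145641546 on the minus strand, which is 1228 bases for a probe of 60 and therefore crosses at least 1 exon junction, whereas each of the others lies in 1 block. The files give no coding or UTR boundary for these transcripts. G and C made up 45% of the bases of the Smurf2 probe at base 2708, 35% at base 3541 and 36.7% at base 4449.

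No member probe differed between the genotypes by the threshold used, a fold change of at least 2 together with an adjusted p of at most 0.05 (limma, Benjamini-Hochberg adjustment over 18547 tested probes). Of all tested probes 0.162% passed it. At an unadjusted p of at most 0.05, 4 of the 7 tested member probes read lower in arrays labelled P38α−/− and 0 higher, and 16.5% of all tested probes read lower at that p. At the same 4 probes, 1 of Smad4 and the 3 of Smurf2, every array labelled P38α−/− lay below every P38α+/− array, which was so at 20.6% of all tested probes. Smurf1 and the Smurf2 probe at base 3541 were tested only because all 3 P38α+/− arrays measured them, a condition that favours probes high in that genotype: of 3062 tested probes of this kind 2800 lay below the median tested probe. The other 5 member probes were well above background on all 6 arrays. The separation of the genotypes also rests on the scale. Levels here are on the log2 scale, with the 75th percentile of 15150 probes, those measured well above background on all 6 arrays, subtracted from each array, and on this scale the median tested probe itself differed by −0.16, so differences are also given relative to it. Scaled to the 75th percentile of all probes, 1 member probe stayed below without overlap, that of Smurf2 at base 3541, as did 4.86% of all tested probes. By quantile normalization, by E1A spike-in spots or in the authors' normalized values 0 member probes did, beside 8.79%, 2.30% and 9.56% of all tested probes. With normexp background correction the only member probe below without overlap was that of Smad5 at base 6826, beside 8.82% of all tested probes. Of the 5 member probes measured on all 6 arrays, 4 lay below the median tested probe and Smad3 alone lay above it, beside 6391 below and 8758 above among the 15150 probes so measured.

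**Figure D1:**
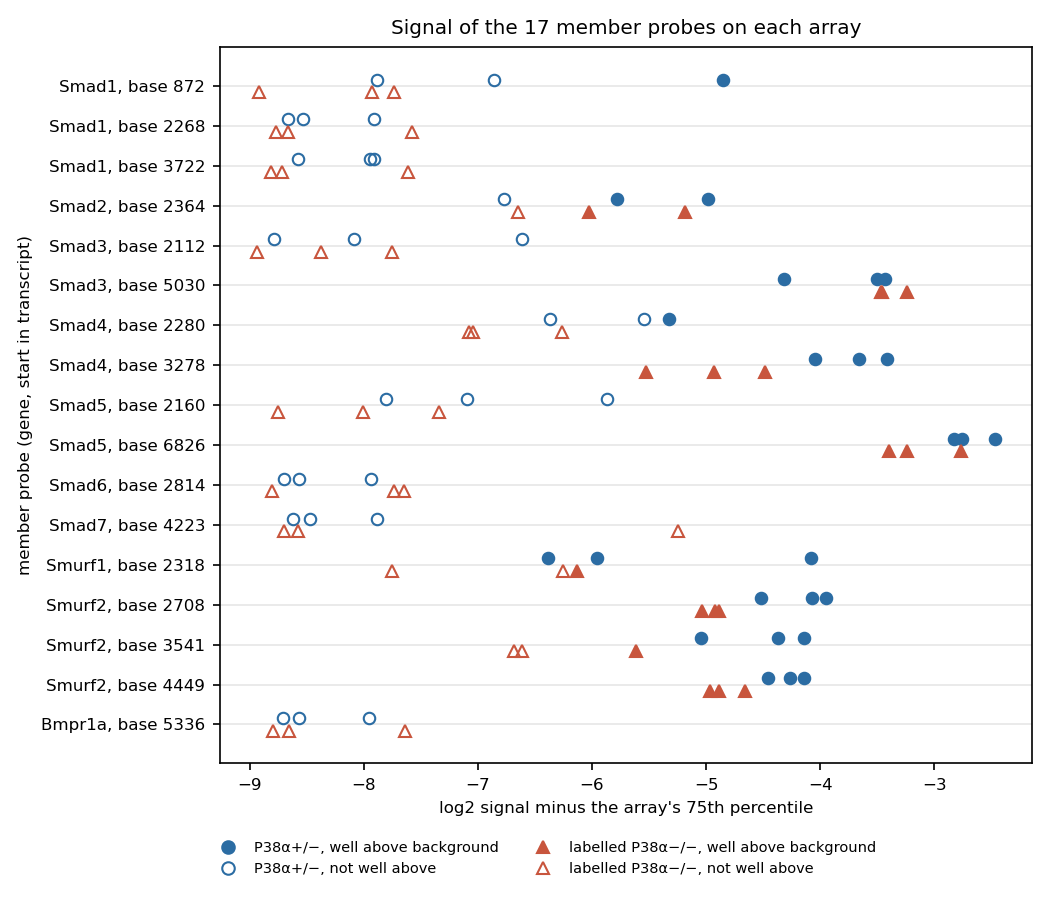
Each row is 1 of the 17 member probes, named by gene and start in the transcript, and the horizontal axis is its log2 signal minus the array's 75th percentile. Circles are the 3 P38α+/− arrays and triangles the 3 arrays labelled P38α−/−, filled where the probe was well above background on that array. The 3 Smurf2 probes and the Smad4 probe at base 3278 have all triangles to the left of all circles, and the probes of Smad1, Smad6, Smad7 and Bmpr1a are open on all arrays but 1, a Smad1 probe on P38α+/− replicate 1.

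The arrays differed in how much they detected. Well above background were 36.8% to 53.1% of probes in P38α+/− arrays and 28.9% to 35.9% in arrays labelled P38α−/−. Replicate 3 labelled P38α−/− was on a different slide, with a different scan date, from all the other arrays, which shared a slide. Of the 2 tested probes of Mapk14, the gene of P38α, neither had a lower mean in arrays labelled P38α−/− (log2 fold changes of 0.54 ± 0.19 and 0.01 ± 0.42, ± SE, the standard error). The deleted sequence is not given in the files, so these arrays are called by their label. By genomic PCR and immunoblotting, the paper reports the P38α locus excised and the protein lost in sorted P38α−/− erythroblasts after PolyIC. The 14 erythroid markers were well above background on all 6 arrays, and their summed signal, in units of the 75th percentile, ran from 1259 to 2122 in P38α+/− arrays and from 1248 to 2158 in the others. The summed signal of 10 neutrophil markers was 180, 284 and 110 in P38α+/− replicates 1, 2 and 3 and 81.5, 82.8 and 58.9 in arrays labelled P38α−/−, and 8 of the 10 were lower without overlap. Summed markers of monocytes or macrophages were 1.38 to 3.01 against 0.84 to 1.12, those of B cells 0.17 to 1.78 against 0.08 to 0.23, and those of T or NK cells 0.71 to 2.65 against 0.54 to 0.70. Of these lists, Mrc1, Cd163, Cd8a and Il7r were well above background on none of the 6 arrays. Megakaryocyte or platelet markers overlapped, at 2.17 to 3.02 against 2.58 to 3.49. The part of the leukocyte markers in any difference given here was not tested, and fewer cells of a type and less RNA per cell cannot be told apart in such bulk samples. Replicates are separate mice, and their number limits the precision of every value.

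Bmpr1a, a type I receptor for BMPs, was not well above background on any of the 6 arrays. Its scanner signal was 3.26 to 3.54 in P38α+/− arrays and 3.37 to 3.72 in those labelled P38α−/−. These are readings of 1 probe, at base 5336 of the transcript, and no difference was detectable at this signal.

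The receptor-regulated SMADs of the BMP branch among the members, Smad1 and Smad5, were read by 5 probes. Smad9, which is not a member, was placed in the list of SMAD partners below and was not tested there. Smad1 had 3, of which only that at base 872 was well above background on any array, namely P38α+/− replicate 1. There its scanner signal was 27.9, against 5.51 and 12.8 in the other P38α+/− arrays and 3.48, 3.26 and 5.56 in those labelled P38α−/−. Smad1 was therefore not tested, and the groups overlapped (exact permutation test, two-sided, p = 0.20, where 3 arrays against 3 cannot give less than 0.10). Smad5 was better measured. Its probe at base 6826 read −2.47, −2.82 and −2.76 in P38α+/− replicates 1, 2 and 3 and −3.40, −2.77 and −3.24 in arrays labelled P38α−/−. Replicate 2 of the latter lay among the P38α+/− arrays and the other 2 below them. The log2 fold change was −0.45 (SE 0.22, 95% interval −0.97 to 0.07, adjusted p = 0.291 by limma), or −0.29 relative to the median probe. A second Smad5 probe, at base 2160, was well above background on none of the 6 arrays.

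The SMADs of the TGF-β and activin branch were read by 3 probes. Smad2 had 1 probe, which only 2 of the 3 arrays of either genotype measured well above background, so that it was not tested. It read −4.99, −5.78 and −6.77 in P38α+/− arrays and −6.64, −6.03 and −5.19 in the others. The groups covered nearly the same range, with a difference of means of −0.11 (exact permutation test, two-sided, p = 0.80). Smad3, at base 5030, read −3.44, −3.50 and −4.32 in P38α+/− arrays and −3.24, −3.47 and −3.46 in arrays labelled P38α−/−. Only P38α+/− replicate 3 stood clearly below the rest. The log2 fold change was 0.36 (SE 0.27, 95% interval −0.28 to 1.01, adjusted p = 0.476 by limma), and 0.52 relative to the median probe, at or above the value of 91.6% of tested probes. Without P38α+/− replicate 3 it was 0.080, or 0.27 relative to the median probe. Under quantile normalization, with the 75th percentile of all probes and in the authors' normalized values, all 3 arrays labelled P38α−/− lay above the P38α+/− arrays at this probe. That was so at 13.0%, 24.3% and 14.4% of all tested probes under those scalings. It was not so for Smad3 on the scale used here, where 6.81% of all tested probes were apart on the higher side. The other Smad3 probe, at base 2112, was well above background on none of the 6 arrays.

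Smad4, the partner that both branches share, lies on chromosome 18 and was read by 2 probes. At base 3278 it read −3.66, −3.41 and −4.04 in P38α+/− arrays and −4.48, −4.93 and −5.52 in arrays labelled P38α−/−. The lowest P38α+/− array stood above the highest of the others, and all 6 were well above background. The log2 fold change was −1.27 (SE 0.31, 95% interval −2.02 to −0.53), which is 2.41-fold lower, with an unadjusted p of 0.00544 and an adjusted p of 0.119 by limma. Relative to the median probe it was −1.11, and only 6.93% of tested probes had a log2 fold change as low. It was lower under each of the 17 alternatives (−1.59 to −0.59), but its groups were apart under 1 of 6 scalings only. Under array weights, which count noisier arrays less, the probe passed the threshold (adjusted p = 0.0472 by limma, in a range of 0.0472 to 1.00 over the alternatives). The probe at base 2280 was well above background on P38α+/− replicate 2 alone. It read −5.54, −5.33 and −6.37 against −7.08, −7.04 and −6.27, with 1 array labelled P38α−/− above the lowest P38α+/− array, and was not tested.

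The inhibitory SMADs, which compete with receptor-regulated SMADs or recruit SMURFs to the receptors, were well above background on none of the 6 arrays. The Smad6 probe gave scanner signals of 3.29 to 3.56 in P38α+/− arrays and 3.52 to 6.35 in the others. Smad7 gave 3.42 to 3.77 in P38α+/− arrays and 3.56 to 3.77 in replicates 2 and 3 labelled P38α−/−. Replicate 1 of that group read 19.5, the single high value of this probe, and there too the scanner software did not mark it as well above background.

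**Figure D2:**
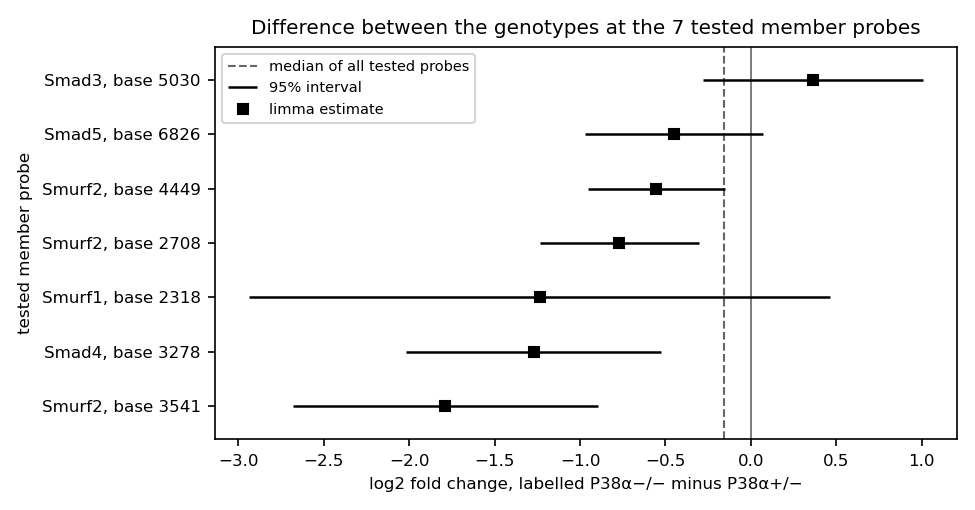
The horizontal axis is the log2 fold change of each tested member probe, arrays labelled P38α−/− minus P38α+/−, by limma on 6 arrays, with its 95% interval as a line and no adjustment for the number of probes. The dashed line is the median of all tested probes at −0.16. Smad3 at 0.36 lies to its right and the other 6 probes, from −0.45 to −1.79, lie to its left, among them Smurf1 and Smurf2 at base 3541, which were tested through the P38α+/− arrays only.

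Smurf1 was dim. Its probe read −4.08, −5.96 and −6.38 in P38α+/− arrays, well above background on all 3, and −6.25, −7.75 and −6.13 in arrays labelled P38α−/−, where it was well above background on replicate 3 only. The groups overlapped, since P38α+/− replicate 3 lay below 2 of the arrays labelled P38α−/−. The fitted difference, a log2 fold change of −1.24, had an SE of 0.71 and a 95% interval of −2.94 to 0.46 (adjusted p = 0.364 by limma). It rested largely on P38α+/− replicate 1, without which it was −0.54, and on replicate 2 labelled P38α−/−, without which it was −0.72. It was −0.51 by quantile normalization, −0.27 with normexp background correction and −0.17 in the authors' normalized values. Since it was tested through the P38α+/− arrays only, this value too is a description.

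Smurf2 read lower at each of its 3 probes. At base 3541 it read −4.37, −4.14 and −5.04 in P38α+/− arrays and −6.68, −5.61 and −6.62 in arrays labelled P38α−/−. Every P38α+/− array was above every array labelled P38α−/−, and only replicate 2 labelled P38α−/− was well above background. The probe entered the comparison through the P38α+/− arrays alone, so its fitted difference of −1.79 on the log2 scale (SE 0.37, adjusted p = 0.102 by limma) is given as a description and sets the P38α+/− arrays against 2 arrays not well above background. At base 2708, where all 6 arrays were well above background, the levels were −3.95, −4.07 and −4.52 against −4.92, −5.03 and −4.89. The arrays labelled P38α−/− lay closer together there than at base 3541, and the log2 fold change was −0.77 (SE 0.19, 95% interval −1.23 to −0.30, adjusted p = 0.124 by limma). At base 4449, also measured on all 6 arrays, the levels were −4.26, −4.14 and −4.46 against −4.66, −4.97 and −4.89. This was the smallest of the 3 differences, a log2 fold change of −0.55 (SE 0.17, 95% interval −0.96 to −0.15, adjusted p = 0.155 by limma). Relative to the median probe the 3 differences were −0.61, −1.63 and −0.39 in the order of the probes along the transcript.

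Averaged over its 3 probes, Smurf2 read −4.33 ± 0.30 (SD, n = 3) in P38α+/− arrays and −5.36 ± 0.14 (SD, n = 3) in those labelled P38α−/−. The groups did not overlap in this mean, which was already set by the 3 probes, each of them lower without overlap. Among single tested probes 20.6% were likewise lower without overlap. The mean includes the probe at base 3541, which was tested through the P38α+/− arrays only, so it is given as a description. Since the groups did not overlap at any Smurf2 probe, every pairing of the arrays gives a lower value in those labelled P38α−/−. Within pairs of the same replicate number the size was 0.37 to 0.98 on the log2 scale at base 2708. It was 1.47 to 2.32 at base 3541 and 0.40 to 0.83 at base 4449. In P38α+/− arrays all 3 Smurf2 probes were lowest in replicate 3, which also had the lowest summed neutrophil, monocyte or macrophage, B cell and T or NK cell markers of that genotype. This was not particular to Smurf2. The tested probes of Smad3 (−4.32), Smad4 (−4.04) and Smurf1 (−6.38) were also lowest in that array among P38α+/− arrays, and that of Smad5 was not. The ratio of signal at the 5′ to the 3′ probe of the same transcript was taken over 970 transcripts with probes at least 500 bases apart. On the log2 scale, relative to the mean of the arrays, it was 0.035, 0.044 and 0.096 in P38α+/− replicates 1, 2 and 3. In arrays labelled P38α−/− it was −0.16, −0.0042 and −0.011, so that the genotypes did not overlap in it. The part of these values in the Smurf2 difference was not tested.

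The size and, for some probes, the sign of the Smurf2 difference moved with the scaling. By quantile normalization the log2 fold changes in the order along the transcript were −0.17, −0.999 and 0.12, and in the authors' normalized values they were 0.04, −0.94 and 0.05. The probe at base 3541 was lower under each of the 16 alternatives that could test it, between −2.13 and −0.58. It crossed the threshold with the 75th percentile of all probes (log2 fold change −1.31, adjusted p = 0.0386 by limma) and with array weights (−1.96, adjusted p = 0.0434 by limma), in a range of 0.0386 to 1.00, but it was selected by its P38α+/− arrays and the filter that asks for all 6 arrays leaves it out, so these crossings lend it no support. The probes at bases 2708 and 4449, measured on all 6 arrays, passed under no alternative.

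**Figure D3:**
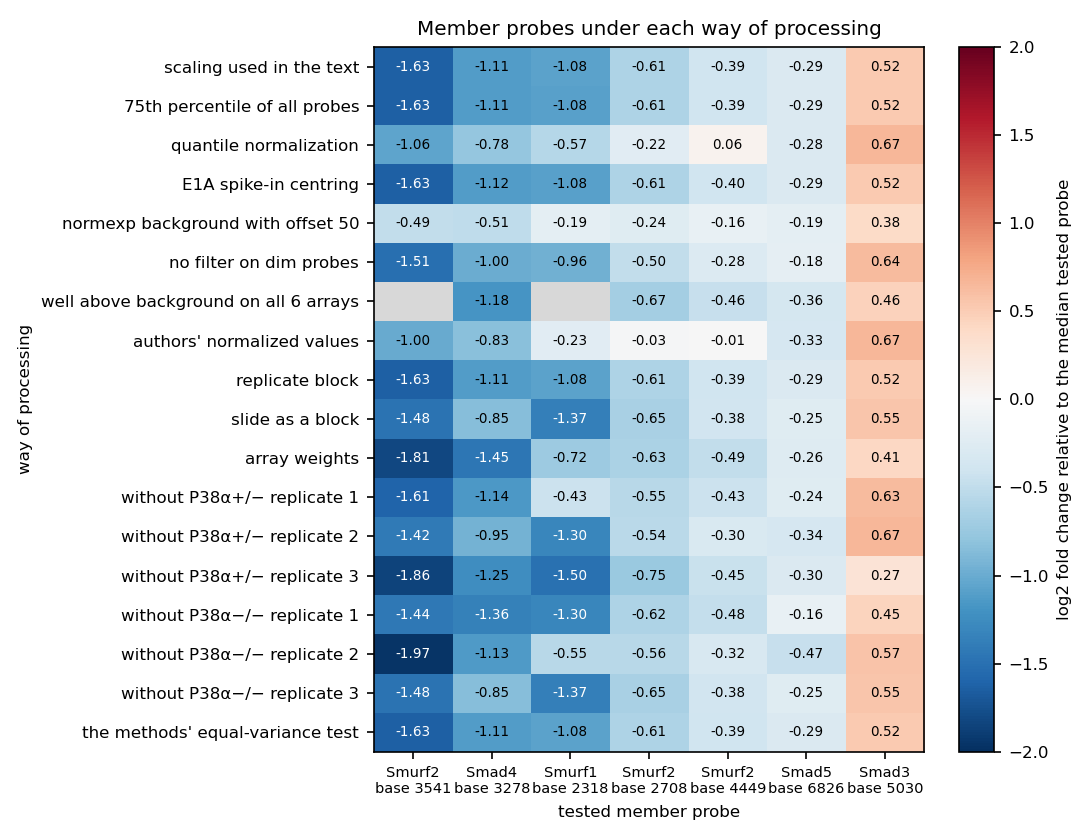
Each column is a tested member probe and each row a way of processing the 6 arrays, and the colour and the printed value are the log2 fold change, arrays labelled P38α−/− minus P38α+/−, relative to the median tested probe under that processing. Grey cells are probes that the stricter filter left out. Smad3 is above 0 in every row, and only the Smurf2 probe at base 4449 crosses 0 below it, at 0.06 under quantile normalization.

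The Smurf2 promoter is shown because Smurf2 was the only member with more than 1 tested probe. The 250 bases before its RefSeq transcription start (GRCm38.p6, chr11:106920716-106920965, minus strand) follow, with each match to GGGCGG or its reverse complement CCGCCC, the letters of a GC box to which Sp1-family factors bind, in capitals.
Smurf2 promoter: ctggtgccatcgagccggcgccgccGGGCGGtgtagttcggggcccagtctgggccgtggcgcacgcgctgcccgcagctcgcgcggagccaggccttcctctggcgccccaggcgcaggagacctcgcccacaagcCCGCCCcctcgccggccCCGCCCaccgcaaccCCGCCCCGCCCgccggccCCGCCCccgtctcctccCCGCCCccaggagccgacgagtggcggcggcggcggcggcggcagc
G and C made up 82% of it. It held 7 matches, 2 of which overlap by 1 base, and 0.411% of 32851 promoters, each searched over the same 250 bases, held as many, while 32.7% held at least 1. All 9 promoters listed for the members Smad1, Smad3, Smad5, Smad6, Smurf1, Smurf2 and Bmpr1a held at least 1 match, and 1 of the 3 of Smad5 also held 7. The SMAD palindrome GTCTAGAC was in 0 of the 9, as against 0.167% of all promoters, and the AP-1 letters TGACTCA or TGAGTCA were in 0 of the 9, as against 4.46%. Such matches describe letters and not binding.

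Genes around the members were taken from lists of the pathway, each gene by its brightest tested probe. None of them passed the threshold, which 0.178% of the 14025 tested genes did. Genotypes without overlap made up 19.5% of tested genes on the lower and 7.30% on the higher side, and the median tested gene stood 0.02 above the median probe. Except for Erfe and Eng, genes were named because their genotypes did not overlap on the scale used here. The 6 scalings reuse the same 6 arrays. Across them 0.593% to 24.3% of all tested probes were apart on the higher side and 2.30% to 20.6% on the lower. How many stayed apart under several scalings at once was not counted. Genes tested through the P38α+/− arrays only, which the filter favours where they are high in that genotype, numbered 4 of 11, 3 of 5, 3 of 17, 1 of 15 and 2 of 8 in the order of the lists that follow, and all of them lay below the median probe.

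Of 31 genes of TGF-β and BMP ligands and extracellular antagonists, 11 were tested, with 2 higher and 1 lower without overlap and a median of 0.05 relative to the median probe. Bmp1, which despite its name is a metalloprotease that cleaves procollagens and the BMP antagonist chordin, read −2.65, −3.36 and −3.97 in P38α+/− arrays and −1.26, −1.84 and −1.81 in arrays labelled P38α−/−. Its log2 fold change was 1.69 (SE 0.36, adjusted p = 0.104 by limma), its groups stayed apart under each of the 6 scalings, and it passed under 2 alternatives, the 75th percentile of all probes and array weights. Gdf3, a ligand of the TGF-β family, had a log2 fold change of 0.86 (SE 0.28, adjusted p = 0.164 by limma), with groups apart under 4 of 6 scalings. Erfe, the erythroblast hormone erythroferrone, which binds BMPs and lowers hepcidin, is named after its values were seen: its groups overlapped, its log2 fold change was 1.32 (SE 0.59, adjusted p = 0.260 by limma), and it passed with the 75th percentile of all probes only. Inhba, the activin A subunit, was well above background on 2 of the 3 arrays labelled P38α−/− and so was tested through the P38α+/− arrays only. It read −4.97, −4.70 and −5.85 against −6.61, −6.27 and −6.00, with a difference of −1.12 on the log2 scale (SE 0.34, adjusted p = 0.155 by limma) and groups apart under 2 of 6 scalings.

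Of the 17 other receptors and co-receptors, 5 were tested, of which 2, Acvrl1 and Eng, were well above background on all 6 arrays. The other 3 were tested through the P38α+/− arrays only, so that the list's median of −0.61 relative to the median probe, with all 5 below it and 2 lower without overlap, is in part set by the filter. Acvrl1, the type I receptor ALK1 known from endothelial cells, which binds BMP ligands and signals through Smad1 and Smad5, read −3.51, −2.87 and −4.27 in P38α+/− arrays and −4.72, −5.24 and −5.58 in those labelled P38α−/−. Its log2 fold change was −1.62 (SE 0.40, adjusted p = 0.120 by limma), lower under each alternative, with groups apart under 4 of 6 scalings. Tgfbr2, the type II receptor of TGF-β, read −4.01, −3.83 and −5.22 against −5.39, −5.30 and −5.24, with 2 of the 3 arrays labelled P38α−/− well above background, and was also tested through the P38α+/− arrays only. Its lowest P38α+/− array and the highest of the others were almost equal, and its log2 fold change was −0.96 (SE 0.37, adjusted p = 0.217 by limma), with groups apart under 1 of 6 scalings.

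The nuclear partners and the other ubiquitin enzymes lay on both sides of the median probe. Of 26 SMAD partners, co-repressors and cofactors, 17 were tested, with a median of −0.02 relative to the median probe. The only one whose groups did not overlap was Sin3a, a scaffold of histone deacetylase complexes, with a log2 fold change of −0.19 (SE 0.14, adjusted p = 0.473 by limma) whose sign turned under 2 of 17 alternatives. Of 18 other ubiquitin ligases and deubiquitinases of the pathway, 15 were tested, with a median of 0.10. Here the only one was Rnf111, the ligase Arkadia that degrades SMAD co-repressors, with a log2 fold change of −0.35 (SE 0.16, adjusted p = 0.279 by limma) whose sign also turned under 2 of 17.

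Of 24 SMAD target genes, 8 were tested, with 1 higher and 1 lower without overlap and a median of −0.02 relative to the median probe. Tgif1 and Tob1 were counted both here and among the SMAD partners above, Tgif1 each time as tested through the P38α+/− arrays only. Id2, which encodes an inhibitor of basic helix-loop-helix factors, read −4.59, −3.54 and −5.19 in P38α+/− arrays and −6.11, −5.96 and −6.62 in the others, of which 1 was well above background. It was tested through the P38α+/− arrays only, and its fitted log2 fold change of −1.79 sets them against arrays mostly not well above background (SE 0.43, adjusted p = 0.118 by limma), with groups apart under 2 of 6 scalings. Tsc22d1, a leucine zipper gene induced by TGF-β, read −1.24, −1.53 and −1.39 against −1.08, −1.09 and −1.12, a log2 fold change of 0.29 (SE 0.15, adjusted p = 0.312 by limma), with groups apart under 5 of 6 scalings.

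**Figure D4:**
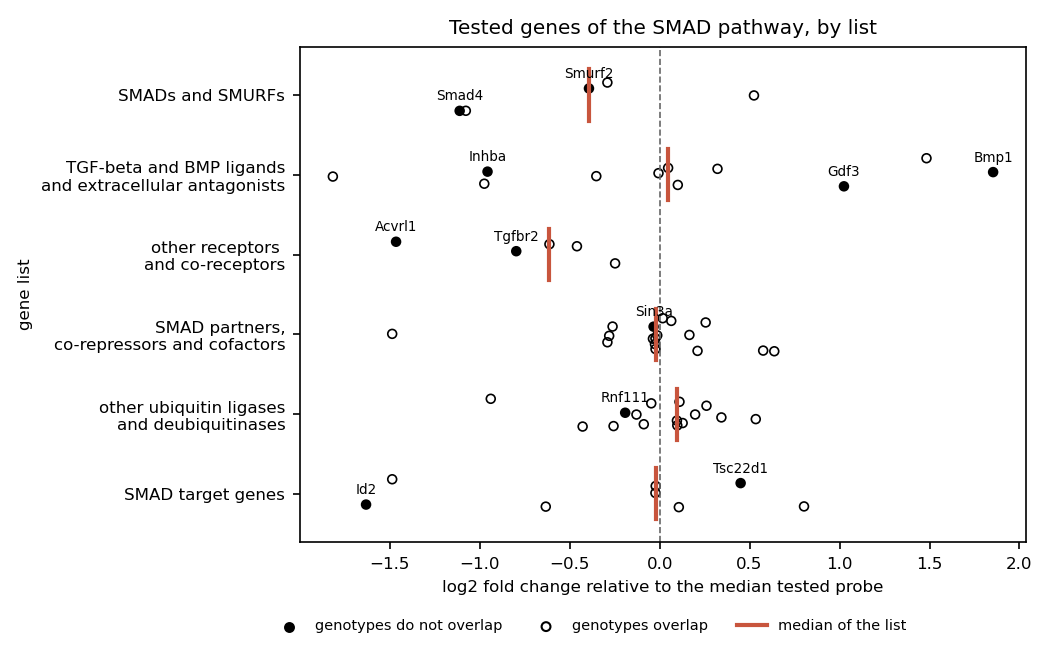
Each point is a tested gene of the list named on the left, by its brightest tested probe, and the horizontal axis is its log2 fold change, arrays labelled P38α−/− minus P38α+/−, relative to the median tested probe. Filled points are genes whose genotypes do not overlap and the bar is the list's median, which is −0.39 for the SMADs and SMURFs, −0.61 for the other receptors and between −0.02 and 0.10 for the remaining 4 lists.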

How the data were processed

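One-colour arrays of 3 P38α+/− and 3 P38α−/− mice were grouped by their sample labels. The authors deposited the intensity of every spot as Agilent Feature Extraction 10.7.3.1 wrote it, background-subtracted within the array and not normalized between arrays, and a table of normalized intensities whose steps are not given in the sources used here. Outlier and control spots were left out, spots of 1 probe were averaged as log2 values, and from each array the 75th percentile of probes well above background on all 6 arrays was subtracted. Genotypes were compared over 18547 probes with limma 3.58.1 in R 4.3.3, tested on simulated data first. Named were every member by each probe and, of each pathway list, at most 4 genes whose genotypes did not overlap, with Erfe and Eng added after the values were seen. Members and lists were chosen with earlier results of these data known. Replicate numbers may pair the samples: the design text speaks of pairs of mice, and same-numbered arrays deviated from their genotype means together (r = 0.54, 0.31 and 0.42). Arrays of unlike number had r of −0.48 to 0.18, values that centring on genotype means itself lowers. The main fit was unpaired, as was the test of the methods, and the replicate entered as a block in an alternative only. Low signal limits dim probes. Alternatives were other scalings, background correction, filters, the replicate or slide as a block, array weights, the methods' equal-variance test and each array left out.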

Additional observations from a re-analysis of the deposited data

How the results depend on the processing

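Over all tested probes, 30 passed the threshold on the scale used here, and the count moved with nearly every alternative: 858 with the 75th percentile of all probes, 12 by quantile normalization, 5 with E1A spike-in centring, 18 with normexp background, 0 without a filter on dim probes, 67 with only probes well above background on all 6 arrays, 11 in the authors' normalized values, 69 with the replicate block, 0 with the slide as a block, which amounts to leaving out P38α−/− replicate 3, 476 with array weights and 2 by the methods' equal-variance test. Leaving out 1 array at a time gave 0 to 104, with 20 without P38α+/− replicate 1, 104 without P38α+/− replicate 3 and 0 without any of the other 4. The replicate block changed no call of a member, though the adjusted p by limma of Smad4 at base 3278 was 0.0695 with it and 0.119 without it. Called member probes numbered 0 on the scale used here and under all alternatives but the 75th percentile of all probes, with 1, and array weights, with 2, and 0 to 0 when arrays were left out. For the listed pathway genes the counts were 3 (Bmp1, Gdf3 and Erfe) and 2 (Bmp1 and Acvrl1) under those same settings and 0 elsewhere. The sign turned for Smad5 at base 6826 with the 75th percentile of all probes (0.032), for Smurf2 at base 2708 in the authors' normalized values (0.036) and for Smurf2 at base 4449 by quantile normalization (0.12) and in the authors' normalized values (0.048). The cause was not tested, except that the percentile of all probes raised the median tested probe to 0.32, which carried Smad5 with it. Genes detected on some arrays only, such as Smurf1 and Smad2, are limited by signal over background.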
